A study of Homo sapiens with 121 samples.

Results

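The nuclear genes of respiratory complex III (cytochrome bc1), complex IV (cytochrome c oxidase) and the ATP synthase were followed in single human embryonic stem cells (hESCs) of known telomere length. Members were the rows whose symbol starts with UQCR, COX4, COX5, COX6, COX7, COX8 or ATP5, together with CYC1, and symbols with a hyphen were left out. The rule gave 47 of the 25610 genes read, of which 11 belonged by name to complex III, 17 to complex IV and 19 to the ATP synthase. The rule uses symbols alone.

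The study measured the transcriptome and the telomere length of the same cell by scT&R-seq, in which poly(A) RNA is captured from a lysed cell for Smart-seq2 libraries while the genomic DNA is kept for a quantitative PCR of telomere repeats over Alu repeats (the T/R ratio). All 121 cells came from the hESC line WA26, kept undifferentiated without feeders in E8 medium on Matrigel, with no treatment or genetic change named. By their titles 81 cells were long, 25 medium and 15 short telomere cells, with borders at T/R ratios of 0.4 and 1. No culture, passage or plate was named for any cell, so each group was treated as 1 sample, cells were not taken as replicates, and no p-value was made. The values are TPM (by definition a level per length of transcript, as a share of all transcripts of a cell), and the depth per cell is unknown from them.

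In the inner membrane of the mitochondrion, complex III passes electrons from ubiquinol to cytochrome c, and complex IV passes them on to oxygen. Both move protons across the membrane, and the ATP synthase lets them flow back through a rotating ring to drive ATP formation in its F1 head. Each complex holds a few catalytic subunits and many small subunits around them. Undifferentiated hESCs are known for a high rate of glycolysis, with the respiratory chain nevertheless present.

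The cells carried the markers of undifferentiated hESCs, since POU5F1 and LIN28A were above TPM 1 in 100% of cells and the other 4 of the 6 markers in at least 93.4%. Their levels moved with the groups to unlike extents. Mean log2(TPM + 1) of NANOG was 7.43 in the long against 4.21 in the short group, that of ZFP42 6.07 against 3.81 and that of DNMT3B 7.02 against 5.07. That of SOX2 was 5.58 against 4.33, that of POU5F1 10.12 against 9.19 and that of LIN28A 7.52 against 7.23. The part of these levels in the results was not tested. Of 8 markers of differentiated cells, GATA6 was detected in 0 cells, SOX17 and T in 1 cell each, MEF2C in 11.6%, AFP in 14.0%, SOX7 in 19.0%, PAX6 in 27.3% and NES in 82.6% of cells. The mean log2(TPM + 1) of SOX7 was 0.56 in the long and 1.08 in the short group, and that of AFP 0.38 and 0.42. For NES (3.62 against 3.20), PAX6 (1.04 against 0.74) and MEF2C (0.32 against 0.21) the mean was higher in the long group. SOX17 and T were at 0 in the short group. A gene was called detected above TPM 1, and a cell had between 2030 and 11515 of them. This number differed with the telomere group, with a mean of 8296 ± 2152 (SD, n = 81) in long, 7980 ± 2070 (SD, n = 25) in medium and 5784 ± 2355 (SD, n = 15) in short telomere cells. Therefore each comparison was repeated on either side of 8000 detected genes, which left 51 long, 14 medium and 3 short cells above it (called gene-rich here) and 30, 11 and 12 below it. In short telomere cells 8 and 12, a row under the symbol of a small non-coding RNA gene held the highest TPM of the series, with 92674 for MIR6723 and 111652 for MIR4461. Which RNA these values came from was not tested.

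Several members have near copies, and their sequences show how far 50-base reads could separate them. UQCRH encodes the hinge protein of complex III, and UQCRHL is its intronless copy at chr1:16133664-16135843 (GRCh37, minus strand), while UQCRH lies at chr1:46769370-46782448 (plus strand). Their coding sequences, from the GENCODE transcripts lifted to GRCh37, are shown because a read from UQCRH could be counted for the copy. Capitals mark the 4 of 276 positions that differ.
UQCRH: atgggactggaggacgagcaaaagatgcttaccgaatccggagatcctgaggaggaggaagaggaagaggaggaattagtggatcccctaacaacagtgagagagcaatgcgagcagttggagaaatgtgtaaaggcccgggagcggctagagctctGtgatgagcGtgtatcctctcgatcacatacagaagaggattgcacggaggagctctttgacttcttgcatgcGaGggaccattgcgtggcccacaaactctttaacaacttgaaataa
UQCRHL: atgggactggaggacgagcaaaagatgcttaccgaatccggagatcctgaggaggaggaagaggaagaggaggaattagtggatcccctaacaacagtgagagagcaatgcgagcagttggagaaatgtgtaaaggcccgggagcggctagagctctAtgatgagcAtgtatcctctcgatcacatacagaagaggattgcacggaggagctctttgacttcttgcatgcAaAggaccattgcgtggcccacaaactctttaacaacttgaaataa

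Of the 50-base windows of UQCRHL, 53.7% occur unchanged in UQCRH, so reads of the pair can be split between them. UQCRHL had a mean of 9.22 TPM against 2721 for UQCRH, and its values are uncertain. ATP5G1, ATP5G2 and ATP5G3 on the other hand encode the same c subunit of the ATP synthase ring behind different leader peptides. The end of each coding sequence is shown, with capitals at the 53 positions at which the genes are not all alike. ATP5G1 lies at chr17:46970127-46973233 (plus strand), ATP5G2 at chr12:54026510-54071192 (minus strand) and ATP5G3 at chr2:176040986-176046438 (minus strand) of GRCh37.
ATP5G1: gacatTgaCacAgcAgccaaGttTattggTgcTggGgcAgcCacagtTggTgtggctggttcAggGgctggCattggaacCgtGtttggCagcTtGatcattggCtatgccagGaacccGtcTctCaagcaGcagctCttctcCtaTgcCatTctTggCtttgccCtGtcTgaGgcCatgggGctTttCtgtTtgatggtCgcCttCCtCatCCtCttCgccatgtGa
ATP5G2: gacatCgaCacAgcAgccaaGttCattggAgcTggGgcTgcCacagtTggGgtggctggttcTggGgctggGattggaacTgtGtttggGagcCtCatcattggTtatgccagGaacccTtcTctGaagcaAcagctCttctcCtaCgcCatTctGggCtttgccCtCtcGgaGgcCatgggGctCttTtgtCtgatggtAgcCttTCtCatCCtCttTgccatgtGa
ATP5G3: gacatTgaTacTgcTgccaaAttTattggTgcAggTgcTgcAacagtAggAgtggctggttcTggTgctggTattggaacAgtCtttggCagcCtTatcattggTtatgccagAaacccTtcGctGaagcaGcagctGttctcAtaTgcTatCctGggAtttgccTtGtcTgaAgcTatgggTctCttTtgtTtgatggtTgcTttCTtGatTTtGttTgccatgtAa

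Over this stretch ATP5G1 and ATP5G2 were 89.0% identical, and ATP5G3 was 81.1% identical to either. No 50-base window of the transcripts is shared between any pair of them, so a whole read separates them. Processed pseudogenes outside the table are a further place for reads, and the annotation names 17 after COX6C, 8 after ATP5G1 and 0 after ATP5I, UQCRQ or ATP5D.

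Among the 47 members, 37 had a mean of at least 10 TPM over all cells, and 34 of these are subunits, with 9 in complex III, 10 in complex IV and 15 in the ATP synthase. The mean level of the subunits ran from 93.8 TPM for UQCRB to 4621 TPM for COX7C. Complex IV stood highest, with a median of 1419 TPM over its subunits, against 940.3 TPM in the ATP synthase and 385.5 TPM in complex III. The remaining 3 of the 37 are COX7A2L, which joins complexes III and IV into supercomplexes (303.0 TPM), and ATP5S and ATP5SL, which carry the ATP5 symbol without being subunits (27.2 and 30.2 TPM).

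Of the 6 isoforms of complex IV known from muscle, lung or testis, 5 were detected in few or no cells. COX7B2 and COX8C were at 0 in every cell, COX6A2 was detected in 1 cell and COX4I2 in 2 cells. COX7A1, the heart and muscle form of COX7A2, was detected in 6.61% of cells. COX6B2, the testis form of COX6B1, was detected in 35.5% with a mean of 5.67 TPM over all cells. It was detected in 25 of 81 long and 7 of 15 short cells, with a highest value of 43.7 TPM in long and 375.4 TPM in short cells, and the difference of long minus short in log2(TPM + 1) was -1.03. Its median was 0 TPM in long and 0.45 TPM in short cells, with an SD of 2.55 in log2(TPM + 1) across short cells. Among gene-rich cells its difference turned to 0.55. The near copies UQCRBP1, ATP5EP2 and ATP5L2 had means of 8.09, 2.17 and 4.90 TPM, which completes the 10 members under 10 TPM with UQCRHL.

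Transcripts of nearly all 34 subunits were found in each cell. The number detected was 32 to 34 in long cells and 33 to 34 in medium cells. It was 28 to 34 in short cells, of which 10 of 15 had all 34 and 3 had fewer than 32.

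To compare the complexes, a score was formed in each cell as the mean log2(TPM + 1) of the subunits of a complex with a mean of at least 10 TPM. The ATP synthase score ran from 8.23 to 10.05 with a median of 9.63 in long cells, and from 9.00 to 9.83 with a median of 9.64 in medium cells. In short cells it ran from 5.06 to 9.74 with a median of 9.12. The groups overlapped, but 5 of the 15 short cells lay below every long cell. The means were 9.61 ± 0.24 (SD, n = 81), 9.58 ± 0.21 (SD, n = 25) and 8.53 ± 1.35 (SD, n = 15), so the long cells were higher than the short cells by 1.08, and the long cell was higher in 84.8% of long-short pairs.

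The complex III score ran from 6.06 to 9.20 with a median of 8.39 in long cells and from 4.40 to 8.83 with a median of 8.14 in short cells. The complex IV score ran from 7.91 to 11.11 with a median of 10.35 in long cells and from 6.73 to 11.43 with a median of 10.25 in short cells. Here 2 short cells lay below every long cell in either complex, and most of the others lay within the range of the long cells. The difference between long and short means was 0.75 in complex III and 0.45 in complex IV, but with cells scaled by the median ratio described further on it was 0.06 and turned to -0.29. The long cell was higher in 62.3% and 57.3% of pairs. Medium cells were close to long cells, with differences of long minus medium of -0.09, -0.16 and 0.03 for complex III, complex IV and the ATP synthase.

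These differences rested on a part of the short cells. By medians they were 0.24, 0.10 and 0.52 for complex III, complex IV and the ATP synthase. Without short cell 6, whose complex III and ATP synthase scores were the lowest of all cells, the differences of the means were 0.53, 0.23 and 0.83. Without short cells 8 and 12 they were 0.60, 0.30 and 0.88. The spread among the short cells was above the difference in each of the 3 complexes (SD 1.37, 1.31 and 1.35).

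**Figure D1:**
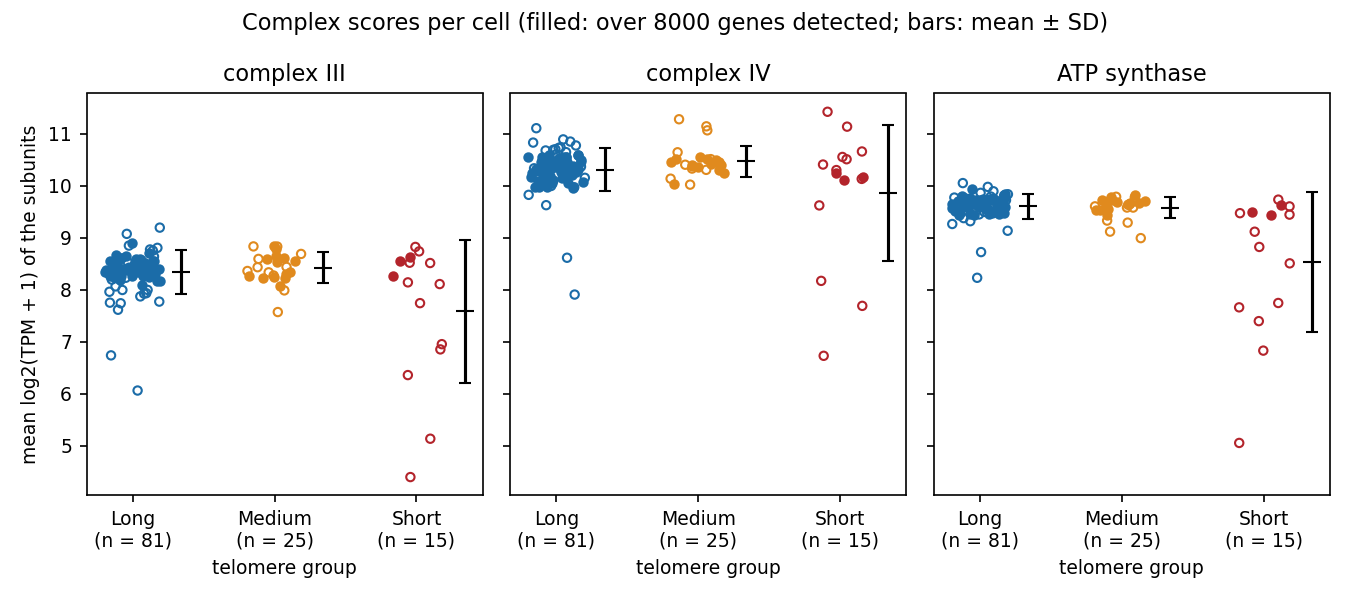
Mean log2(TPM + 1) of the subunits (vertical axis) of complex III, complex IV and the ATP synthase in each cell by telomere group, with filled points for cells with over 8000 detected genes, open points for the others, and bars for the mean ± SD. The 3 filled short cells lie among the long cells, and the low short cells are open points.

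Among gene-rich cells the scores of the groups were nearly the same. The differences of long minus short were -0.06, 0.13 and 0.11 for complex III, complex IV and the ATP synthase, and rested on 3 short cells. Below the border of 8000 they were 0.83, 0.54 and 1.28, but the number of detected genes still differed there. Its mean was 5755 ± 1096 (SD, n = 30) in long and 4933 ± 1719 (SD, n = 12) in short cells, with lowest values of 4002 and 2030. The number of detected genes moved with the scores among all cells, with Pearson coefficients of 0.36, 0.12 and 0.36, and its part in the differences was not tested.

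Setting the complexes against each other within the same cell takes out what moves their scores alike. The ATP synthase score minus the complex IV score averaged -0.70 ± 0.33 (SD, n = 81) over long cells, -0.89 ± 0.36 (SD, n = 25) over medium cells and -1.33 ± 1.18 (SD, n = 15) over short cells. For complex IV minus complex III the means were 1.97 ± 0.40, 2.05 ± 0.43 and 2.28 ± 0.66. For ATP synthase minus complex III the means were 1.27 ± 0.31, 1.16 ± 0.37 and 0.95 ± 1.04. The ATP synthase thus differed more between long and short cells, by 0.63 against complex IV and 0.32 against complex III, but from log2 of the summed TPM both values turned (-0.16 and -0.05). The SD across short cells was above either value. Above 8000 detected genes these differences were -0.02 and 0.18.

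Most genes were higher in long cells, which sets the scale for the members. Over the 6213 genes with a mean of at least 10 TPM, the median difference of long minus short in log2(TPM + 1) was 1.40, and it was 0.60 over the 186 genes with at least 1000 TPM. The median over the 37 members was 0.80. A difference of at least 1 toward long cells was reached by 13 of the 37 members, against 66.5% of all 6213 genes. A difference of at least 1 toward short cells was reached by 0 members, against 1.71% of all genes. A higher mean in short cells of any size was found for 7 members (ATP5I, UQCR10, UQCRQ, COX5B, ATP5J2, COX7B and ATP5J), where 9.06% of all genes had one. This direction depends on the scaling: with each cell scaled by a median ratio, taken from the 602 genes that no cell has at 0, the median of the members was 0.03, 8 were past 1 toward long and 5 toward short cells (ATP5I, UQCR10, UQCRQ, COX5B and ATP5J2), where 50.8% and 4.80% of all genes were, and the median of all genes was 1.02. With all differences taken relative to the median of all genes, 5 members were past 1 toward long and 15 toward short cells, where 12.1% and 15.9% of all genes were.

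**Figure D2:**
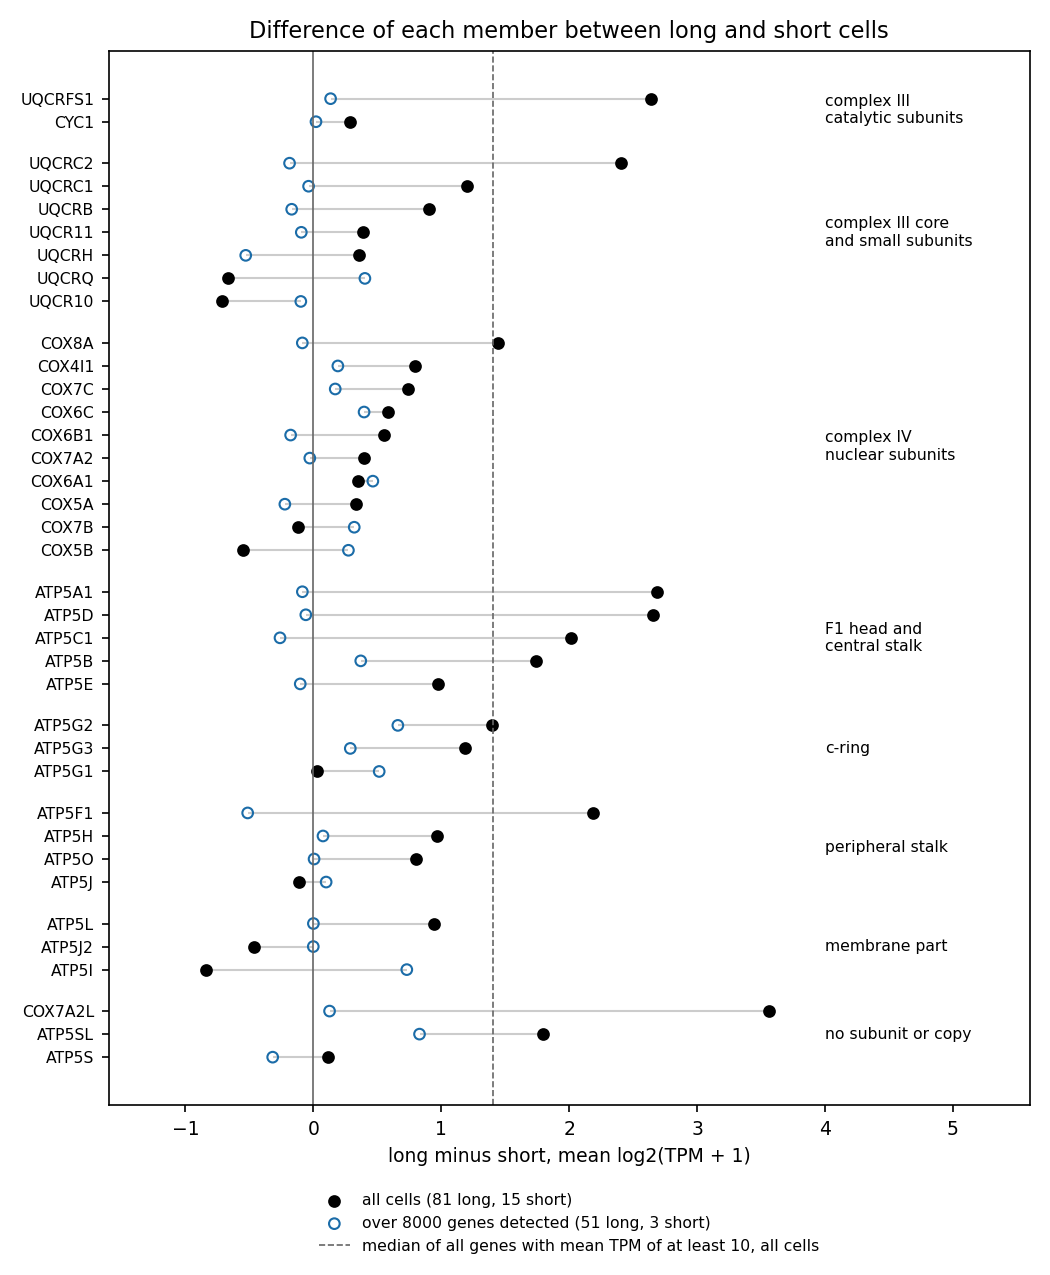
Difference of long minus short telomere cells in mean log2(TPM + 1) (horizontal axis) for the 37 members with a mean of at least 10 TPM, grouped by role, in all cells (filled) and in cells with over 8000 detected genes (open). The dashed line is the median of all genes with at least 10 TPM in all cells (1.40), and the open points lie between -0.53 and 0.83.

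In complex III the catalytic subunit UQCRFS1, the Rieske iron-sulfur protein (chr19:29696227-29704058, GRCh37), showed the largest difference. Its TPM ran from 68.0 to 2288 with a median of 541.2 in long cells, from 94.1 to 987.8 with a median of 437.0 in medium cells and from 0 to 998.4 with a median of 147.2 in short cells. The ranges overlapped, and 7 of the 15 short cells were below every long cell. The difference was 2.64 in log2(TPM + 1), with SDs of 0.68 in long and 2.90 in short cells, and the long cell was higher in 78.2% of pairs. For the other catalytic subunit encoded in the nucleus, cytochrome c1 (CYC1), the difference was 0.29 and the long cell was higher in 55.1% of pairs.

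The core proteins UQCRC2 and UQCRC1, which build the matrix side of complex III, differed by 2.40 and 1.20. The small subunits UQCRB, UQCR11 and UQCRH differed by 0.90, 0.38 and 0.36. UQCRQ (chr5:132202322-132204539, GRCh37) and UQCR10, also small subunits, had higher means in short cells. The TPM of UQCRQ ran from 6.39 to 1041 with a median of 301.4 in long cells, from 170.6 to 1163 with a median of 329.0 in medium cells and from 92.4 to 1958 with a median of 557.8 in short cells. The groups overlapped over most of their range, and the median was highest in short cells. The differences of long minus short were -0.67 for UQCRQ and -0.71 for UQCR10.

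Complex IV had the smallest spread of differences among its subunits. COX8A, a single-helix subunit, differed by 1.44, and 2 of the 15 short cells did not have it detected. COX4I1, a regulatory subunit, and COX7C, the most abundant member, differed by 0.80 and 0.74. COX6C differed by 0.59, COX6B1 by 0.55, COX7A2 by 0.40, COX6A1 by 0.35 and COX5A by 0.33. COX7B and the zinc-binding subunit COX5B were at -0.12 and -0.55. In COX5B the TPM ran from 21.9 to 3279 with a median of 1118 in long cells and from 402.0 to 5585 with a median of 1552 in short cells. No short cell was thus without COX5B, and the lowest value was that of a long cell. As deposited 8 of the 10 subunits had a difference above 0, and with the median ratio scaling 2 of the 10 had. Of all genes 9.06% were below 0 as deposited and 19.4% with that scaling.

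The subunits of the ATP synthase were grouped by their place in its structure. The F1 head and central stalk, which hold the catalytic sites and the rotor shaft, had 4 of its 5 differences above 1, with 2.69 for ATP5A1 (alpha), 2.65 for ATP5D (delta), 2.01 for ATP5C1 (gamma), 1.74 for ATP5B (beta) and 0.97 for ATP5E (epsilon). Of all genes 66.5% reached 1 toward long cells. ATP5D was detected in 77 of 81 long and 10 of 15 short cells, so its difference held cells without a detected transcript. Over the detecting cells alone its mean log2(TPM + 1) was 7.20 in long and 6.24 in short cells. The TPM of ATP5A1 (chr18:43660214-43684300, GRCh37) ran from 61.5 to 2852 with a median of 1109 in long cells, from 165.5 to 1598 with a median of 1012 in medium cells and from 0.40 to 1905 with a median of 314.3 in short cells. The ranges overlapped, with 5 of 15 short cells below every long cell. The long cell was higher in 78.0% of pairs.

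In the peripheral stalk, which holds the head still, ATP5F1 (subunit b) differed by 2.19, ATP5H (d) by 0.97 and ATP5O (OSCP) by 0.80, while ATP5J (F6) was at -0.11. The c-ring genes were not alike. ATP5G2 and ATP5G3 differed by 1.40 and 1.19 and ATP5G1, which encodes the same mature protein, by 0.03. The median of ATP5G1 was 884.7 TPM in long and 1012 TPM in short cells, that of ATP5G2 was 1002 and 521.6 TPM, and that of ATP5G3 was 654.6 and 374.4 TPM.

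The membrane subunits ATP5I (e), ATP5J2 (f) and ATP5L (g), which lie around the ring and join ATP synthase dimers, stood at -0.84, -0.46 and 0.94. The TPM of ATP5I (chr4:666225-668119, GRCh37) ran from 595.9 to 4824 with a median of 1632 in long cells, from 831.9 to 12240 with a median of 1914 in medium cells and from 523.9 to 9844 with a median of 3995 in short cells. The median of the short cells was thus the highest, although the lowest value of all cells was also that of a short cell. For ATP5J2 the medians were 1016, 1120 and 1767 TPM in long, medium and short cells. The long cell was higher than the short cell in 29.2% of pairs for ATP5I and in 34.9% for ATP5J2.

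Scores were also formed by role within the ATP synthase. The F1 head score differed by 2.01, the peripheral stalk by 0.96, the c-ring by 0.87 and the membrane part by -0.12, which was 0.01 without short cell 4 and -0.41 without short cell 6. The membrane part held only the 3 symbols that start with ATP5. The membrane subunits USMG5 and C14orf2, which the rule left out, differed by 0.74 and 0.08, so the value of this part depends on the rule. With the median ratio scaling all 5 head subunits kept a difference above 0, and 1 of 3 membrane subunits had one, as before, where 19.4% of all genes were below 0. Within the same cell, the head score minus the membrane score averaged -0.98 ± 0.78 (SD, n = 81) over long cells, -1.23 ± 1.15 (SD, n = 25) over medium cells and -3.11 ± 2.19 (SD, n = 15) over short cells. Leaving out any of the short cells kept the difference of long minus short between 1.89 and 2.35 around its value of 2.13. Among gene-rich cells it was -0.27, and among the other cells 2.22. Across all cells this contrast moved with the number of detected genes (Pearson 0.66), whose part was not tested. The roles were fixed as lists, and the contrast of head and membrane part was chosen after the values were seen.

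ATP5I and ATP5A1 were set side by side as the genes with the lowest and the highest difference of the ATP synthase, so a wider gap in short cells follows from the choice and the values are a description. ATP5I was above ATP5A1 in TPM in 72 of 81 long, 25 of 25 medium and 14 of 15 short cells. On the log2(TPM + 1) scale ATP5I exceeded ATP5A1 by a median of 0.59 in the long group, 0.89 in the medium group and 4.63 in the short group, with a highest value of 12.35 in short cell 15. In complex III, UQCRFS1, the subunit with the largest difference, was set beside UQCRQ, which the study names. UQCRQ (-0.67) was not the lowest of its complex, since UQCR10 was at -0.71. UQCRQ was above UQCRFS1 in 9 of 81 long, 6 of 25 medium and 9 of 15 short cells. Above 8000 detected genes it was so in 5 of 51 long, 0 of 14 medium and 0 of 3 short cells.

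**Figure D3:**
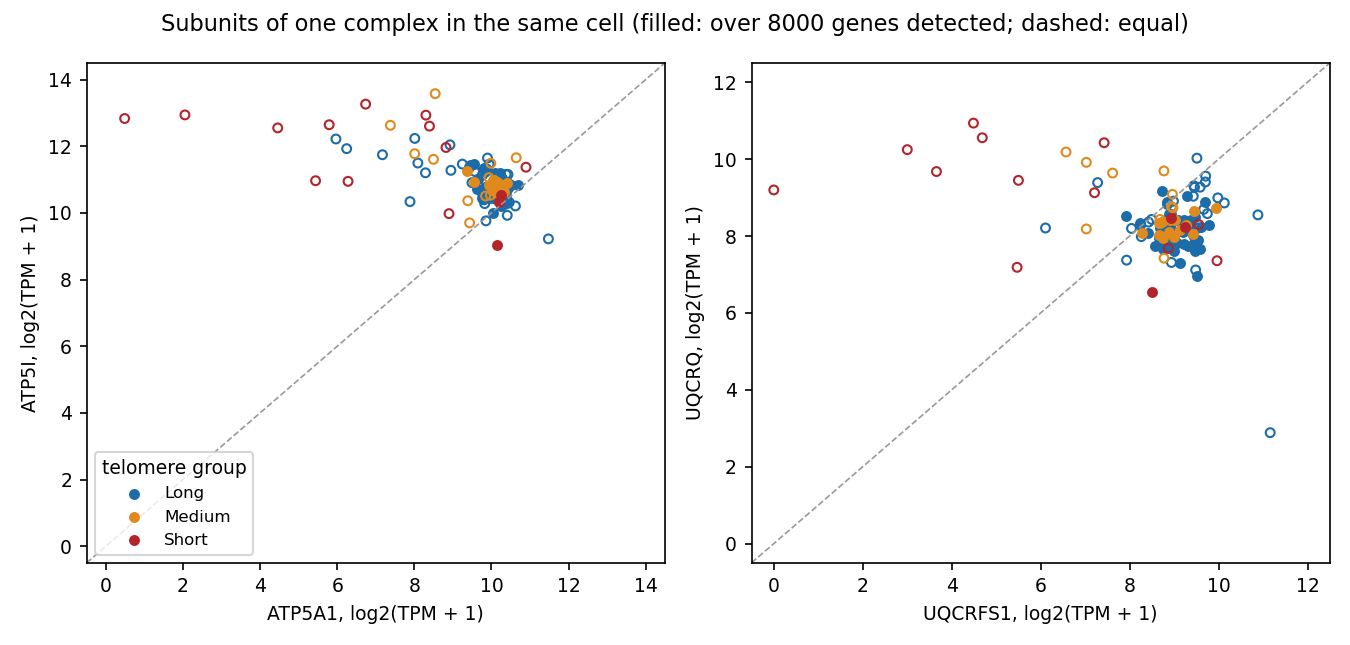
Expression in log2(TPM + 1) of ATP5I against ATP5A1 and of UQCRQ against UQCRFS1 in the same cell, coloured by telomere group, with filled points for cells with over 8000 detected genes and a dashed line at equal values. Short cells with few detected genes lie at the upper left, with high ATP5I or UQCRQ and low ATP5A1 or UQCRFS1, and some long and medium open points lie there too.

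Among gene-rich cells the contrast of ATP5A1 and ATP5I was not seen in the 3 short cells. The TPM of ATP5A1 in them was 1176, 1223 and 1140, against a median of 1156 (682.1 to 1647) in the 51 long cells. The TPM of ATP5I was 1276, 1500 and 523.9, against a median of 1574 (1013 to 2836). The values of ATP5A1 lay in the middle of the long cells, and 1 of the 3 values of ATP5I was below all of them. Differences of at least 1 in either direction were found for 0 of the 37 members among gene-rich cells, where 12.7% and 6.94% of all genes reached them toward long and short cells. Among cells with up to 8000 detected genes 18 members reached 1 toward long cells (51% of all genes) and 1 member, ATP5I at -1.05, toward short cells (3.9% of all genes).

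The members that were higher or lower in short cells differed in length. Across the 34 subunits, the coding length and the difference of long minus short had a Spearman coefficient of 0.56 in all cells, 0.61 in cells with up to 8000 detected genes and -0.08 in gene-rich cells. The median difference was 0.38 for the 13 subunits with up to 300 coding bases, 0.85 for the 12 with 300 to 600, 2.01 for the 5 with 600 to 1200 and 2.07 for the 4 with 1200 to 3000. The same order was found over the 1284 genes with at least 100 TPM and a known coding length, with a coefficient of 0.29 and medians of 0.67, 1.03, 1.61 and 1.64 in these bins, and of 0.56 for the 12 genes with more than 3000 coding bases, a length that no subunit has. Over the 5792 genes with at least 10 TPM and a known coding length the coefficient was 0.09 in all cells and 0.02 in cells with up to 8000 detected genes. Exceptions among the subunits were COX8A, with 207 coding bases and a difference of 1.44, and CYC1, with 975 and a difference of 0.29. The coefficient was 0.46 with exon length in place of coding length. It is across genes, which are not independent, and the part of length in the differences was not tested. The head subunits ATP5A1, ATP5B, ATP5C1, ATP5D and ATP5E have 1659, 1587, 894, 504 and 153 coding bases. The membrane subunits ATP5I, ATP5J2 and ATP5L have 207, 282 and 309. Role and length were not separated in the contrast of head and membrane part.

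**Figure D4:**
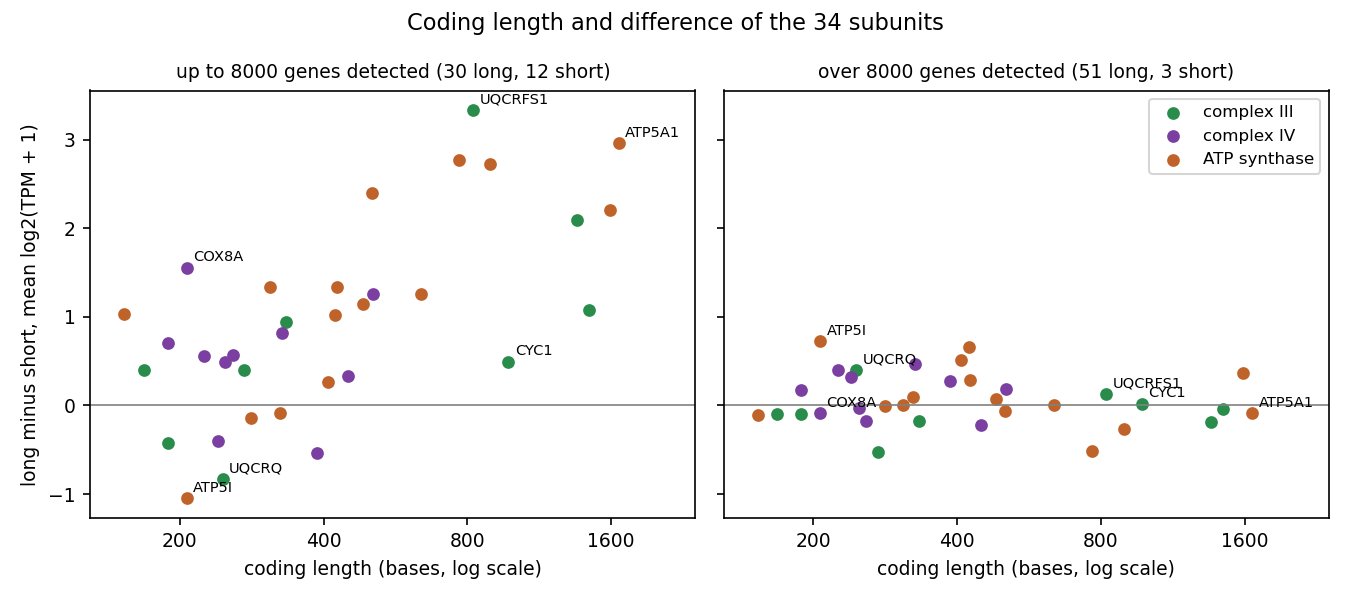
Coding length of the 34 subunits (horizontal axis, log scale) and their difference of long minus short in mean log2(TPM + 1), in cells with up to 8000 detected genes on the left and with over 8000 on the right. On the left long coding sequences go with large differences (Spearman 0.61), and on the right the points lie about 0 at every length (Spearman -0.08).

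On the linear scale the direction of the means turned. All members of the 3 complexes together took 37161 ± 5682 TPM (SD, n = 81) in long, 39302 ± 10611 TPM (SD, n = 25) in medium and 42809 ± 21395 TPM (SD, n = 15) in short cells. The mean sum was higher in short than in long cells for complex III (7172 against 5649 TPM), complex IV (18012 against 16470 TPM) and the ATP synthase (17624 against 15041 TPM), and each difference was below the SD across short cells. By medians the sum of complex IV was lower in short cells, at 14549 against 15800 TPM. Among gene-rich cells the mean sum was higher in short cells for complex III (6746 against 5367 TPM) and lower for complex IV (14186 against 15581 TPM) and the ATP synthase (12408 against 13819 TPM). In cell 15 of the short group the members of complex III took 21247 TPM, of which UQCRH held 8812 TPM, and in cell 6 they took 1170 TPM. The 2 cells thus mark the highest and the lowest sum in the group.

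The scores were then set against the T/R ratio as a continuous measure. Coefficients are descriptions across cells of 1 line, which share the library protocol and differ in the number of detected genes. The ATP synthase score had a Pearson coefficient of 0.30 and a Spearman coefficient of 0.22 over all 121 cells, and of 0.01 and -0.06 over the 68 gene-rich cells. Complex III had 0.09 and -0.02 over all cells and -0.07 and -0.10 in gene-rich cells, and complex IV had 0.07 and -0.05 over all cells and -0.24 and -0.25 in gene-rich cells. Within the long cells alone, the coefficients were -0.30 for complex III, -0.04 for complex IV and -0.09 for the ATP synthase, so the positive value of the ATP synthase over all cells was not seen within that group.

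Single members had larger coefficients of TPM with the T/R ratio in both directions. A coefficient of at least 0.2 was found for 7 of the 37 members (11.7% of all genes), and it was 0.36 for UQCRFS1, 0.29 for ATP5C1, 0.26 for ATP5O, 0.23 for both COX7A2L and ATP5A1, 0.22 for ATP5G3 and 0.20 for ATP5B. A coefficient of at most -0.2 was found for 5 members (2.09% of all genes), namely ATP5I with -0.29, UQCRH with -0.24, UQCRQ with -0.22 and ATP5J2 and UQCR11 with -0.21. Among gene-rich cells 0 members reached 0.2 (8.85% of all genes) and 4 reached -0.2 (5.12% of all genes), with -0.31 for UQCRH, -0.26 for ATP5F1, -0.21 for COX6A1 and -0.20 for COX6C. Among cells with up to 8000 detected genes 10 members reached 0.2 (20.8% of all genes) and 6 reached -0.2 (5.67% of all genes). The highest in gene-rich cells were UQCRFS1 with 0.19, UQCRC1 with 0.17, ATP5D with 0.15, ATP5J with 0.14 and ATP5I with 0.11, and COX5A followed at the lower end with -0.17.

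UQCRH kept a negative coefficient in both sets of cells. Leaving out the 2 gene-rich cells with the most extreme T/R ratios gave -0.22, and its Spearman coefficient among gene-rich cells was -0.19. UQCRFS1 kept a positive coefficient, with 0.43 over all cells and 0.10 over gene-rich cells when the 2 most extreme were left out, and a Spearman coefficient of 0.39 over all cells, and the number of detected genes had a coefficient of 0.02 with it. The score of the catalytic subunits of complex III (UQCRFS1 and CYC1) minus that of the other subunits had a coefficient of 0.40 with the T/R ratio over all cells, 0.19 in gene-rich cells, and 0.33, 0.01 and 0.40 within long, medium and short cells. This contrast was also chosen after the values were seen. The catalytic subunits were not alike, since the TPM of CYC1 had a coefficient of 0.05 over all cells and that of UQCRFS1 0.36.

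The factor COX7A2L, which ties complex III to complex IV, had the largest difference of the 37 members. Its TPM ran from 0 to 2513 with a median of 303.6 in long cells, from 3.37 to 553.5 with a median of 355.1 in medium cells and from 0 to 424.9 with a median of 48.8 in short cells. It was detected in 80 of 81 long, 25 of 25 medium and 10 of 15 short cells, so the difference of 3.57 held cells without a detected transcript. In gene-rich cells the difference was 0.13. ATP5SL, an assembly factor of complex I, differed by 1.79 and ATP5S by 0.12, and each difference was below the gene's SD across long cells (2.17 and 2.02).

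Other lists of the pathway stood as follows, with all differences as long minus short in log2(TPM + 1). Of all genes 66.5% were past 1 toward long and 1.71% toward short cells, and their median was 1.40. Complex I was listed by symbol alone (NDUF without NDUFAF), and whether each gene is a subunit of it was not checked. Of 38 such genes with at least 10 TPM, 10 were past 1 toward long and 1 (NDUFA3) toward short cells, with a median of 0.54. All 4 subunits of complex II, which is also part of the citric acid cycle, were past 1 toward long cells, with a median of 2.14. Of 33 genes in a list of assembly and associated factors, which also holds the ATP synthase membrane subunits USMG5 and C14orf2 and the inhibitor ATPIF1, 17 were past 1 toward long cells with TMEM70, an ATP synthase factor, at 2.74, and UQCC3, a complex III factor, was past 1 toward short cells at -1.41. Of 4 electron carriers and feeders, 1 was past 1 (ETFA at 3.36), and CYCS, the cytochrome c gene, differed by 0.60.

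Of 5 regulators of respiratory genes measured at 10 TPM or more, 4 were past 1 toward long cells, and TFAM, which packs mitochondrial DNA, differed by 0.82. Of 16 glycolytic genes 10 were past 1, a share close to that of all genes, with a median of 1.22, and LDHA, which turns pyruvate into lactate, reached 3.27. Of 82 cytosolic ribosomal protein genes 23 were past 1, with a median of 0.73. The medians of these lists among gene-rich cells lay between -0.41 and 0.10. The 37 members, with 13 past 1 and a median of 0.80, thus stood between the ribosomal protein genes and the assembly and associated factors, whose median was 1.11, and all of these medians but those of complex II and the regulators were below that of all genes.

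Among the 68 gene-rich cells most pairs of subunits were weakly correlated. The median Pearson coefficient of log2(TPM + 1) over the 561 pairs of subunits was 0.05, against 0.03 over the pairs of all genes with at least 100 TPM. Within complex IV the median over 45 pairs was 0.25, within complex III it was -0.02 over 36 pairs and within the ATP synthase 0.03 over 105 pairs. Over all cells these medians were 0.32, 0.17 and 0.25, and 0.19 for the pairs of all genes, with cells of few detected genes included. The scores themselves had coefficients among gene-rich cells of 0.48 between complex III and the ATP synthase, 0.41 between complex IV and the ATP synthase and 0.19 between complexes III and IV.

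The 3 pairs with the highest coefficients crossed the borders of the complexes. UQCR10 and ATP5J2 had 0.64, COX6A1 and ATP5J2 had 0.60 and UQCRQ and ATP5I had 0.58. The lowest was that of ATP5A1 and ATP5J2, with -0.56, both of them subunits of the ATP synthase. Against the mean score of the other 2 complexes ATP5J2 had 0.62, UQCR11 0.48 and UQCRQ 0.47, while ATP5A1 had -0.47, COX7C -0.23 and ATP5G2 -0.21. Coding length and this coefficient had a Spearman coefficient of -0.29 over the 34 subunits. The order was another one over all cells, where ATP5L was first with 0.75. There ATP5J2 had 0.37, UQCR11 0.39 and UQCRQ 0.17, below the median of 0.43.

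**Figure D5:**
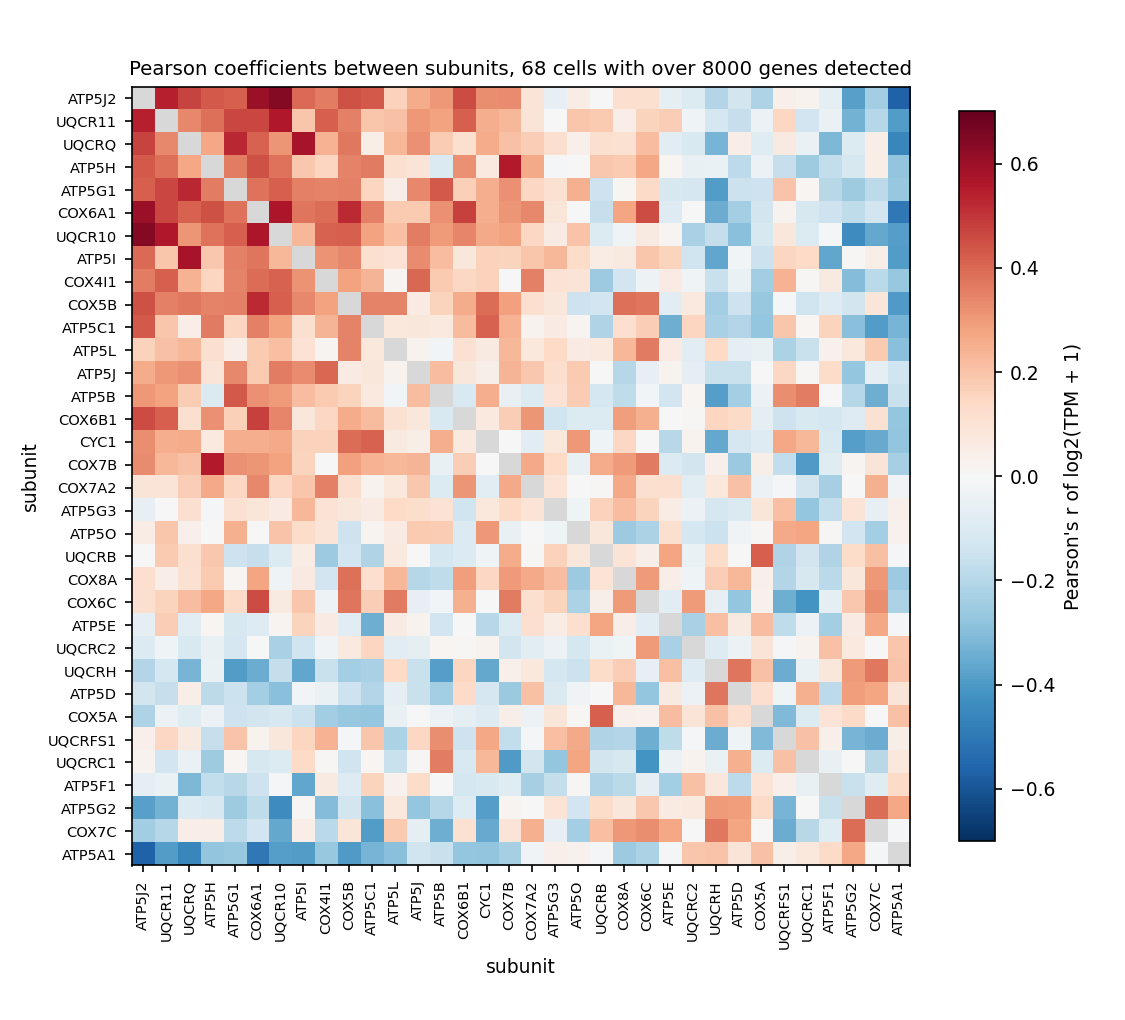
Pearson coefficients of log2(TPM + 1) between the 34 subunits in the 68 cells with over 8000 detected genes, with rows and columns ordered by the coefficient to the mean score of the other 2 complexes. The block of positive values at the upper left holds UQCRQ, UQCR10, UQCR11, COX6A1, ATP5J2, ATP5I and others, and ATP5A1 at the lower right has negative values with most of them (-0.56 with ATP5J2).

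Outside the members, the 10 genes with at least 100 TPM that followed the mean of the 3 scores most closely among gene-rich cells were TMA7 (0.65), TCEB2 (0.62), MIF (0.62), KNOP1 (0.60), SLIRP (0.59), POLR2L (0.58), BOLA2B and BOLA2 (0.58 each), NDUFB10 (0.58) and SNRPD2 (0.58), where the median over 1324 genes was 0.12. BOLA2 and BOLA2B hold identical values and cannot be told apart. The complex I subunit NDUFB10 was the single gene of another respiratory complex among them. The lowest were the elongation factor EEF1A1 (-0.61) and the ribosomal protein genes RPS3A (-0.58) and RPL4 (-0.57).

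Promoters were read for the 27 of 34 subunits found in the RefSeq table (GRCh38.p14), over the 250 bases before the annotated start. The ETS motif CCGGAAGT, searched on both strands, lay in 6 of the 27 (ATP5H, COX5B, COX8A, UQCR11, UQCRH and UQCRQ), that is 22.2%, against 9.69% of 5007 promoters of genes with at least 10 TPM and 3.64% of all 27305 promoters. The YY1 motif AAGATGGC lay in 1 of the 27 (3.70%, ATP5J), against 2.22% of expressed and 1.37% of all promoters, and the NRF1 motif also in 1 (ATP5C1), against 2.40% and 1.13%. The CCAAT box, searched as ATTGGC, lay in 6 (22.2%), against 20.7% and 14.4%, and TATAAA in 3 (11.1%), against 5.15% and 11.1%. ATP5J2, the subunit that followed the other complexes most closely among gene-rich cells, was not searched, and ATP5G1, COX6A1 and UQCR10 had no match to the ETS motif. UQCRQ and UQCR11, next after ATP5J2 among gene-rich cells, hold it, at chr5:132866392-132866641 (plus strand) and chr19:1605463-1605712 (minus strand) of GRCh38.p14. Both windows are shown with the motif in capitals, as a description of letters and not of binding.
UQCRQ: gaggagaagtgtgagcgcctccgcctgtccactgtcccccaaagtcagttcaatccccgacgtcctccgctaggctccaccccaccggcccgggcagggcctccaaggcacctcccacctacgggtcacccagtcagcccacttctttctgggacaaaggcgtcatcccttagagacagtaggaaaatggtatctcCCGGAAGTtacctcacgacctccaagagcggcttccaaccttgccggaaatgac
UQCR11: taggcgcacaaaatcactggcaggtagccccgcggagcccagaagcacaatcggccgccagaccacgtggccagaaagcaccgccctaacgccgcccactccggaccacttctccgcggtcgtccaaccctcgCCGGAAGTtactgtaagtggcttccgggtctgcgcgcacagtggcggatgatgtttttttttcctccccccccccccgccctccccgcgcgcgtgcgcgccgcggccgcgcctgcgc

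The 6 genes with the ETS motif stood on both sides of 0 in long minus short. UQCRQ and COX5B were at -0.67 and -0.55, UQCRH and UQCR11 at 0.36 and 0.38, and ATP5H and COX8A at 0.97 and 1.44. ATP5I and UQCR10, with the lowest differences of their complexes, had no match to the motif in this window.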

How the data were processed

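Deposited values were the authors' TPM, with 1 column for each of 121 single cells of the line WA26 (81 long, 25 medium and 15 short telomere cells by title), sums of 979828 to 997050 per cell and 2 decimals. Per the methods, 50-base single-end reads were mapped to hg19 by TopHat and counted per RefGene gene by HTSeq. The submitters' processing notes name TopHat2 and RSEM, so the tool behind the TPM is uncertain, and a library-size factor is named for normalization too. A scaling by length was read from the values themselves. Over 3551 genes with at least 10 cells at 0, a gene's lowest value above 0 and its exon length had a Spearman coefficient of -0.63. The mean TPM of these genes had -0.35 with exon length, and the part of the level in the first coefficient was not tested. The most frequent value of a cell made up a median of 0.34% of its values. Scaling of whole counts by library size alone would give every gene of a cell the same step. TPM keeps no number of reads, so no counting error is given. The table gave 25610 genes, and 1 incomplete row at its end was not used. Each cell was a library of its own, with no barcode shared.

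T/R ratios were taken from the study's table of cells. The members, roles and gene lists were chosen with earlier results of these data known. Differences are of mean log2(TPM + 1), with SD across cells; coefficients are Pearson's, with TPM for genes and log2 scores for complexes, unless named Spearman. With 1 sample per group there was no test. Sizes of 1 (difference) and 0.2 (coefficient) were fixed as bounds, over genes with a mean of at least 10 TPM. Named genes are all members above it, the extremes of each complex and of the T/R coefficients, near copies, tissue isoforms and the 10 nearest other genes. Other genes were named as examples of the fixed lists after their values were seen.

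Coding lengths and positions are from GENCODE v44 lifted to GRCh37, promoters from RefSeq. Alternatives were pseudocounts of 0.1 and 10, other filters, summed TPM, medians, other scalings and subsets of cells. Calculations were tested on simulated data. Python 3.11.15, numpy 2.4.6, pandas 2.3.3, scipy 1.17.1 and matplotlib 3.10.9 were used.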

Additional observations from a re-analysis of the deposited data

How the results depend on the processing

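Of 179 alternatives over 15 results, 146 stayed within a bound fixed for the shift (1 SD across long cells for scores and sums, 0.1 for coefficients, 1.5 times for counts), 17 moved past it and 16 turned a value. The bound is wide: within it the complex IV difference was 0.066 by log2 of the summed TPM, 0.10 by medians, 0.13 above 8000 detected genes and 0.067 between the 40 cells of highest and the 40 of lowest T/R ratio, and the summed TPM of complex IV turned from -1542 to 1251 by medians. Differences of long minus short scores (0.75, 0.45 and 1.08 for complex III, complex IV and the ATP synthase) were 0.062, -0.29 and 0.38 with the median ratio scaling. By log2 of the summed TPM they were -0.041 for complex III and -0.095 for the ATP synthase, by medians 0.24 and 0.52, above 8000 detected genes -0.062 and 0.11, and between the 40 cells of highest and the 40 of lowest T/R ratio 0.15 and 0.40. Leaving out each short cell in turn gave 0.53 to 0.84, 0.23 to 0.56 and 0.83 to 1.16, an alternative added after seeing the data, as were leaving out short cells 8 and 12 together, the contrasts of roles within a complex and the coding length. Coefficients with the T/R ratio were, for complex III (0.09), -0.071 with summed TPM, -0.019 by rank, -0.11 with the median ratio and -0.070 above 8000 detected genes. For complex IV (0.07) they were -0.047 by rank, -0.15 with the median ratio and -0.24 above 8000, and for the ATP synthase (0.30) 0.029 with summed TPM and 0.0076 above 8000. Complex IV minus complex III (-0.30) was 0.11 with summed TPM and 0.19 above 8000, the ATP synthase minus complex III (0.32) was -0.053 with summed TPM, and the ATP synthase minus complex IV (0.63) was -0.16 and -0.015 under these. Members higher in long cells by at least 1 numbered 13, and 8 with the median ratio, 0 above 8000 and 5 relative to the median of all genes. Members higher in short cells numbered 0, and 2 without a filter on low values (COX6B2 and ATP5L2), 5 with the median ratio and 15 relative to that median. Without the filter these 2 were among 45 members, where 2.41% of all genes above TPM 0 in a cell were past 1 toward short cells. Toward long cells 13 of the 45 members were past 1, where 24.8% of all such genes were. The median coefficient between subunits (0.05) was 0.22 over all cells. The causes of these changes were not tested. No paired analysis was possible because the replicate numbers only name cells and no test was run. With 15 short cells, 3 of them above 8000 detected genes, and no reads given, low values cannot be split into absent transcripts and transcripts not captured.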
